A study of Danio rerio with 12 samples.

Results

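Chromatin accessibility was examined at the annotated gene starts of zebrafish chromosome 4, whose long arm is known as the most heterochromatic stretch of the genome. The deposited table held 15674 distinct windows of 4000 bp, each centred on a transcription start site, and the 634 windows on chromosome 4 (build GRCz10) were taken. Of these, 187 started at 28000000 bp or beyond and were assigned to the long arm, and 447 started before that position and were assigned to the short arm. Another 14897 windows lay on the other assembled chromosomes and 143 on unplaced contigs.

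The assay was ATAC-seq, in which the Tn5 transposase cuts open chromatin, so that the signal at a window rises with its accessibility. The libraries came from supt16h-/- embryos (Mut) and wildtype siblings (WT), collected whole at 32 h after fertilization and deyolked, with 50000 cells per library. Each group had 3 biological replicates sequenced in 2 technical replicates each, and the means of technical pairs, numbered 1 to 3 in each group, are the values given here. supt16h encodes a subunit of FACT, a histone chaperone that moves H2A-H2B dimers as polymerases pass, and the study asked how its loss changes accessibility. The labels name neither the mutant allele nor whether heterozygotes were among the WT siblings. They also do not say whether replicates came from separate clutches, so the tests below measure the spread between these samples.

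In zebrafish the long arm of chromosome 4 replicates late and is packed with repeats. It carries arrays of C2H2 zinc finger genes, of NLR genes (innate immune receptors with a NACHT domain) and of small RNA genes, and few conserved protein-coding genes. It also holds the mir430 array, whose microRNA miR-430 is transcribed in many copies at the onset of zygotic transcription and clears maternal messenger RNAs. The short arm is ordinary gene-rich chromatin.

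Values are the authors' normalized signal on a log2 scale, and differences are Mut minus WT on that scale. Because that scale holds weak windows close together, folds computed from it understate the change, most of all where signal is low. The window of supt16h itself, on chromosome 7, had a signal of 8.62 ± 0.12 in Mut and 8.55 ± 0.28 in WT (SD, n = 3 each), which does not check the labels because a mutation need not alter accessibility at the gene's own promoter. Of 7 tissue marker genes, all with signal, elavl3 of neurons (9.96 in Mut and 9.81 in WT) and myod1 of muscle (8.01 in Mut and 7.84 in WT) had the higher mean in Mut. The other 5 had the lower mean in Mut, namely sox10 of neural crest (8.09 in Mut and 8.24 in WT), cdh5 of endothelium (6.50 in Mut and 6.80 in WT), nkx2.5 of heart (6.33 in Mut and 6.44 in WT), gata1a of blood (5.35 in Mut and 5.45 in WT) and tp63 of epidermis at each of its 3 windows. What part tissue makeup has in the differences between genotypes was not tested. In bulk embryos, fewer cells with an open window and less opening per cell cannot be told apart.

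The long arm had weaker signal at its gene starts than the short arm in both genotypes. The median over all windows was 5.97 on the long arm (quartiles 4.70 and 7.17), 6.96 on the short arm and 7.39 on the other chromosomes. Signal under 6 was found in 50.8% of long-arm windows, in 23.7% of short-arm windows and in 20.4% of windows elsewhere. Of the 25 chromosomes with chromosome 4 divided into its arms, the long arm ranked lowest by median and the short arm next, with the remaining chromosomes between 7.05 on chromosome 22 and 7.58 on chromosome 17.

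The comparison of the arms was made within each biological replicate, over the 150 long-arm and 445 short-arm windows whose mean signal reached 4. Long-arm medians were 6.43, 6.37 and 6.40 in Mut replicates 1, 2 and 3, and 6.35, 6.31 and 6.41 in WT replicates 1, 2 and 3. Short-arm medians were 6.96, 7.0 and 6.93 in Mut and 7.02, 7.02 and 7.06 in WT. Every long-arm median therefore lay under every short-arm median, and within the long arm the genotypes overlapped.

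The long arm was lower than the short arm by a mean of 0.62 (SD 0.074, range 0.53 to 0.71) in 6 of 6 replicates, with p = 0.031 in a two-sided exact permutation test that swaps the arms within a replicate. This is the smallest p that 6 replicates allow. As every replicate measures the same windows, the test shows that the gap repeats between samples. It takes no account of the spread between windows, here or in the comparisons below. Against the other chromosomes the long-arm median was lower by a mean of 1.04 (SD 0.057), also in 6 of 6 replicates (exact permutation p = 0.031). Windows under the level of 4 were 37 of 187 on the long arm (19.8%), 2 of 447 on the short arm (0.447%) and 1.34% elsewhere, so the comparison over all windows was wider, at 0.95 (SD 0.075). Low accessibility is the only feature of heterochromatin measured here, since no histone or DNA methylation data were used.

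Some long-arm genes, above all those of the mir430 array, stand at more than 1 place in the genome. How reads were assigned between copies is not given in the sources used here. Accessions placed at several positions accounted for 64 of the 187 long-arm windows (34.2%), for 0 of the 447 short-arm windows and for 1.11% of windows elsewhere. Of the 64, 48 lay in the mir430 array, and without microRNAs 16 of 135 long-arm windows were of this kind (11.9%). Without all 64 the long-arm median was lower than the short-arm median by 0.76 in place of 0.62, with the same exact permutation p of 0.031. That step also takes out nearly all of the mir430 array, which holds the highest windows of the arm. It leaves in any similar copies that have accessions of their own, so what part read assignment has in the gap was not tested. Leaving out the microRNA windows gave a gap of 0.90.

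Windows of annotated gene starts were also sparser on the long arm, with 3.88 windows per Mb against 16 on the short arm and between 9.34 and 14.1 on the other chromosomes. Genes absent from the deposited table are not counted. Apart from microRNAs, the median distance to the nearest neighbouring window was 51.4 kb on the long arm, 12 kb on the short arm and 16.4 kb elsewhere. Neighbours were more than 100 kb away for 37.0% of long-arm windows and for 5.03% of short-arm windows.

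Low signal was concentrated in the middle of the long arm. Apart from microRNAs, the 18 windows from 28 to 36 Mb had a median of 6.28, the 45 windows from 36 to 68 Mb a median of 5.08, and the 72 windows from 68 Mb to the chromosome end a median of 6.41. The borders of these stretches were not set before the values were seen, so the contrast between them adds no support to the bin values. In the middle stretch 86.7% of windows were under 6, and its 4 Mb bins ranged from 4.50 at 36 to 40 Mb to 5.90 at 44 to 48 Mb. The last 3 bins before the chromosome end were at 6.17, 6.41 and 6.70, while short-arm bins ranged from 6.64 to 7.90.

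**Figure D1:**
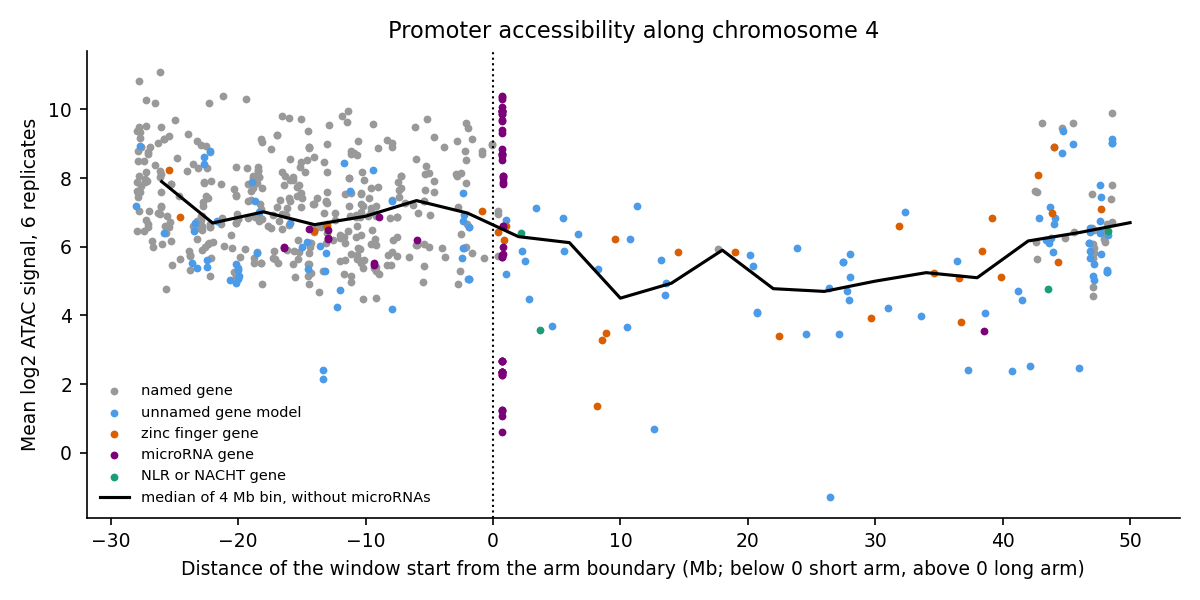
Mean signal over 6 replicates of all 634 chromosome 4 windows (log2, vertical axis) by distance from the arm boundary in Mb (horizontal axis, short arm below 0), with the median of each 4 Mb bin without microRNAs as a line. The bins between chromosome positions 36 and 68 Mb lie between 4.50 and 5.90, under all short-arm bins, and the distal bins reach 6.70.

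At the arm boundary, the bin median without microRNAs was 6.29 from 28 to 32 Mb on the long arm and 6.98 from 24 to 28 Mb on the short arm. The nearest genes spread more widely than this. On the short-arm side, cerk (ceramide kinase, window 27907545-27911545) had a mean of 8.99 in Mut and 8.99 in WT, and its overlapping neighbour tbc1d22a had 8.99 in Mut and 8.96 in WT. On the long-arm side, trmu (a mitochondrial tRNA-modifying enzyme, 28362250-28366250) had 5.83, 5.93 and 5.73 in Mut and 5.71, 5.72 and 5.53 in WT. The next gene, tprkb (a subunit of the KEOPS tRNA-modifying complex, 28382621-28386621), had 7.09, 7.13 and 7.15 in Mut and 6.93, 7.0 and 6.98 in WT. Differences at trmu and tprkb were 0.18 ± 0.08 and 0.15 ± 0.07 (SE), without passing the test (limma adjusted p = 0.172 and 0.184). Under a block on replicate number, described below, trmu passed (adjusted p = 0.0267) and tprkb did not (0.082).

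The kinds of genes differed between the arms. Gene models without an established name made up 77 of the 187 long-arm windows (41.2%) and 11.4% of short-arm windows, and genes with an established name made up 31 of 187 (16.6%) and 85.2%. In each of the next 3 classes, long-arm windows had the lowest median signal. Zinc finger genes were at 5.86 on the long arm (23 windows), at 6.87 on the short arm (5 windows) and at 8.14 on the other chromosomes (243 windows). This class was drawn by gene description or symbol, so it is not limited to the C2H2 type. Unnamed models were at 5.67 on the long arm, 6.00 on the short arm and 6.47 elsewhere, and named genes at 6.43 on the long arm, 7.19 on the short arm and 7.52 elsewhere. The microRNA class went the other way, with 7.22 on the long arm and 6.21 on the short arm. However, 50 of its 52 long-arm windows are overlapping windows of the mir430 array, described below. The others were under the level of 4, namely mir430a-18 (0.60 in Mut and 0.61 in WT) and mir738 (3.52 in Mut and 3.59 in WT). These class medians carry no test.

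The windows of lowest signal on the long arm were near empty in all 6 replicates. The gene model si:dkey-65l23.2 at 54481985 stood between -1.29 and -1.27 in every replicate, and si:ch211-181p13.2 at 40672659 between 0.67 and 0.74. The other 3 of the lowest 5 were mir430 windows. At the top, the 5 highest long-arm windows were all in the mir430 array. The highest outside it were pacsin2 (an F-BAR protein of endocytosis) at a mean of 9.90, nup50 at 9.61, rab3ip (an activator of Rab8) at 9.61 and trim24 (a transcription cofactor) at 9.47.

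The mir430 array contributed 50 overlapping windows, starting between 28736728 and 28752811 and spanning 20083 bp, and 48 of them belonged to accessions found at several places. They share reads and are not independent. By signal they formed 3 stretches, whose borders were drawn after the values were seen. The 21 windows of the left stretch had means between 8.53 and 10.38, the 17 windows of the middle stretch had means between 1.08 and 2.68, and the 11 windows of the right stretch had means between 5.70 and 8.07. A remaining window between the left and middle stretches had values from 4.99 to 6.60. The near-empty middle covered 9266 bp in all replicates of both genotypes. The highest window of the arm, at 28738933, carries several mir430 symbols, mir430a-12 among them. It had 10.95, 10.65 and 9.59 in Mut and 10.73, 10.65 and 9.71 in WT.

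Replicate 3 stood apart at the array in both genotypes, in opposite directions on its sides. On the left, medians over windows were 10.50, 10.17 and 8.96 in Mut replicates 1, 2 and 3 and 10.28, 10.15 and 9.18 in WT replicates 1, 2 and 3, so that replicate 3 was lowest in each group. On the right, they were 6.19, 6.35 and 7.0 in Mut and 6.44, 6.65 and 7.08 in WT, so that replicate 3 was highest in each group. The genotypes overlapped at all 33 windows tested, while over all 15431 windows tested 29.6% had groups that did not overlap. Differences on the left ran from -0.00 to 0.08, and those on the right from -0.30 to -0.10. Limma called 0 array windows at an adjusted p under 0.05 (lowest adjusted p 0.738, with 0 windows at an unadjusted p under 0.05), beside 11.6% of all tested windows. The authors' deposited table called 0 of them, beside 19% of all windows. When replicate number entered the fit as a block, 7 windows of the right stretch were lower in Mut (lowest adjusted p 0.0184), beside 9.47% lower over all tested windows.

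**Figure D2:**
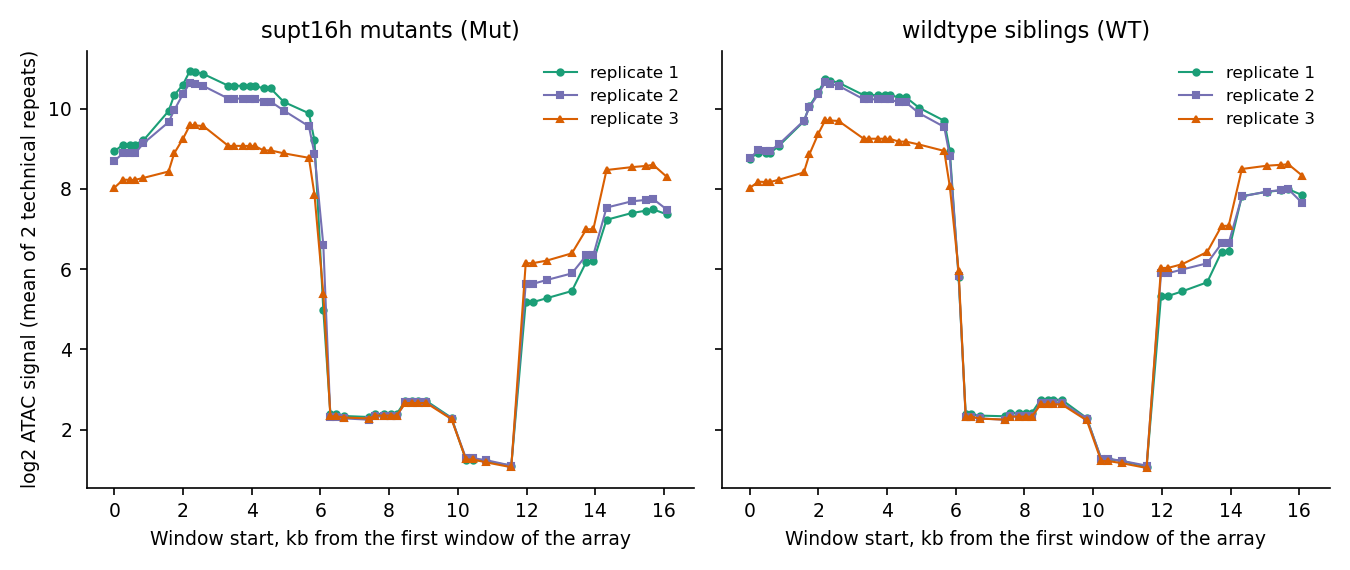
Signal (log2, vertical axis) of the 50 overlapping mir430 windows by distance of the window start from the first window in kb (horizontal axis), with a panel for Mut and a panel for WT and a line for each replicate. Left windows are high, the middle is between 1.04 and 2.74 in every replicate, and replicate 3 is lowest on the left and highest on the right in both groups.

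Accessibility at 8 long-arm windows was higher in Mut than in WT, and at 0 windows it was lower (limma, Benjamini-Hochberg adjusted p under 0.05). Across all 15431 windows tested, 11.6% were called, 8.02% higher and 3.58% lower in Mut. The long-arm count of 8 of 150 is 5.33%, in this fit the lowest share among the arms and the other chromosomes. Under the replicate block the long-arm share was 18.0%, beside 23.5% over all tested windows. The long arm also had the lowest signal, and a median SD between biological replicates of 0.143, beside 0.088 on the short arm. What part either has in the share was not tested. At an unadjusted p under 0.05, 21 of the 150 long-arm windows were higher and 2 lower in Mut. Over all 15431 windows tested, 2188 were higher and 1631 lower at that threshold. All 8 calls lay between 71904903 and 75677630, in the distal stretch, where they were 8 of 69 windows (11.6%), near the share of the whole table. Apart from microRNAs, the stretches from 28 to 36 Mb and from 36 to 68 Mb had 0 of 16 and 0 of 32 called by limma. In them 4 and 2 windows were higher at an unadjusted p under 0.05, and the authors' deposited table called 1 in each. After cyclic loess normalization 1 was called in each, beside 6 of 69 in the distal stretch. Under the replicate block 4 of 16 (25%) and 2 of 32 (6.25%) were called, all higher in Mut, beside 20.3% in the distal stretch. The median difference was 0.13 from 28 to 36 Mb, 0.03 from 36 to 68 Mb and 0.008 in the distal stretch. A difference between the stretches was not tested.

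The greatest increase was at zgc:174310 (window 75673630-75677630), a gene model with no established function. It had 7.94, 7.99 and 8.09 in Mut and 7.62, 7.50 and 7.63 in WT. Every Mut replicate was above every WT replicate, as at all 8 long-arm calls. Since these windows were called on the same values, the separation adds no support to the calls. The difference was 0.42 ± 0.08 (SE), a 1.34-fold increase, with limma adjusted p = 0.00145.

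The window of large (73606532-73610532), which encodes a glycosyltransferase that extends the laminin-binding glycan of dystroglycan, had 6.73, 6.57 and 6.60 in Mut and 6.30, 6.08 and 6.29 in WT. The groups did not overlap, and the difference was 0.41 ± 0.08, or 1.33-fold, with limma adjusted p = 0.00267. The window of nup50 (73502480-73506480), a nucleoporin of the nuclear pore basket, had 9.93, 9.64 and 9.71 in Mut and 9.45, 9.35 and 9.56 in WT. Its lowest Mut value was 9.64 and its highest WT value 9.56, and the difference was 0.30 ± 0.09 with limma adjusted p = 0.0337. After cyclic loess normalization the nup50 difference was 0.15, with adjusted p = 0.429.

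Zinc finger genes supplied 2 of the calls. The window of znf989 (72007519-72011519) had 8.98, 9.23 and 8.95 in Mut and 8.65, 8.87 and 8.71 in WT, a difference of 0.31 ± 0.09 (limma adjusted p = 0.0333). The window of the gene model si:ch73-266f23.3 at 72006543 overlaps it and gave nearly the same values, with a difference of 0.30, so the pair counts as 1 region. At znf1015 (71904903-71908903) the values were 7.05, 7.15 and 7.13 in Mut and 6.79, 6.98 and 6.85 in WT, and the difference of 0.24 ± 0.08 was close to the threshold (adjusted p = 0.0495). After cyclic loess normalization the znf989 difference was 0.22 with adjusted p = 0.103.

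Of the 23 long-arm zinc finger windows, 17 were tested, 2 rose and 0 fell, a share of 11.8% beside 11.6% of all tested windows and 13.6% of zinc finger windows on the other chromosomes. Their median difference was 0.12 and 12 of 17 were above 0, beside 150 of 242 zinc finger windows above 0 on the other chromosomes, where the median difference was 0.05. Under the replicate block, 5 of the 17 were higher in Mut, among them znf1041, znf1147 and znf971. In that fit 50 of 242 zinc finger windows on the other chromosomes were higher, and 14% of all tested windows. At znf1147 (62625272) the values were 5.50, 5.28 and 5.31 in Mut and 5.19, 5.13 and 5.06 in WT, which do not overlap, with limma adjusted p = 0.0617 and a block adjusted p of 0.0115.

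The remaining calls were the gene models zgc:171551 and zgc:153116. zgc:171551 at 72095585 had 7.01, 6.97 and 6.97 in Mut and 6.69, 6.72 and 6.66 in WT, the tightest replicates of the 8, with a difference of 0.29 ± 0.07 (adjusted p = 0.0102). zgc:153116 at 74883688 had 6.68, 6.65 and 6.72 in Mut and 6.51, 6.34 and 6.39 in WT, with a difference of 0.27 ± 0.07 (adjusted p = 0.0247). At both windows every Mut replicate was above every WT replicate.

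Calls at zgc:174310, large and zgc:171551 held under each of the 15 other settings run. The znf1015 call was lost with no level filter (adjusted p = 0.0513) and with limma without trend and robust (0.0604), and si:ch73-266f23.3 was lost after cyclic loess (0.111) and quantile normalization (0.118), as were znf989 (0.108 after quantile) and nup50 (0.368 after quantile). Leaving out 1 replicate also ended calls, with adjusted p of 0.0564 to 0.163 at nup50 (Mut 1, Mut 3, WT 1 or WT 2), 0.112 to 0.16 at znf989 and 0.117 to 0.174 at si:ch73-266f23.3 (Mut 2, WT 1 or WT 3), 0.117 to 0.204 at znf1015 (Mut 2, Mut 3, WT 1 or WT 3) and 0.0909 to 0.116 at zgc:153116 (Mut 3, WT 2 or WT 3).

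**Figure D3:**
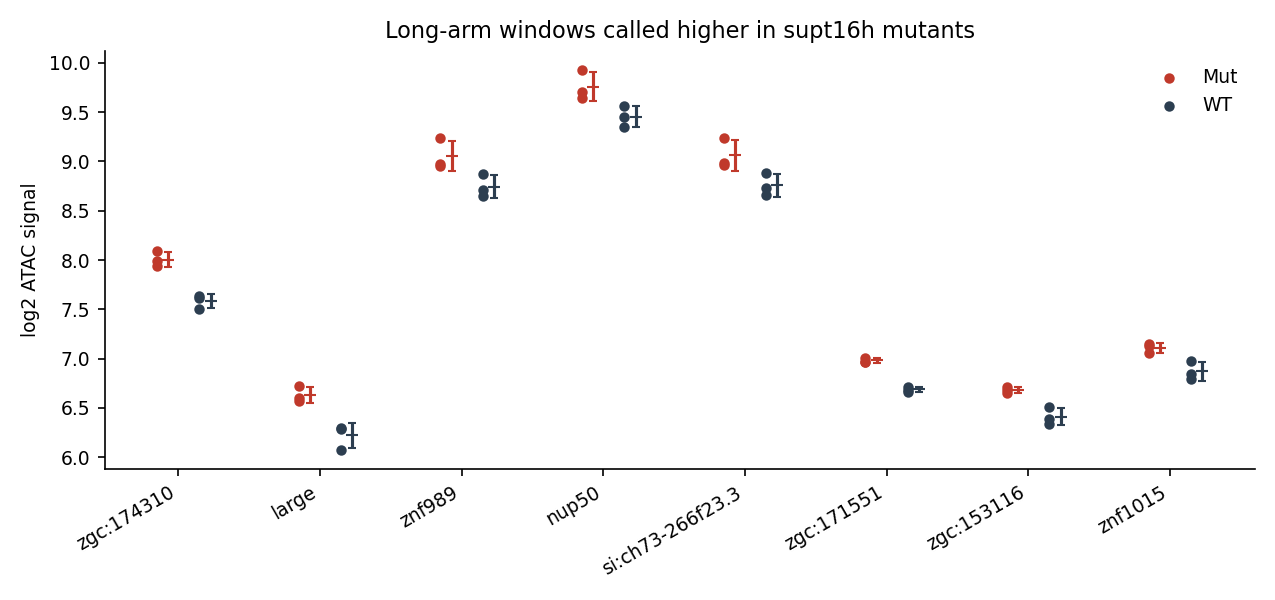
Signal (log2, vertical axis) of the 3 Mut and 3 WT replicates, Mut left of WT, at the 8 long-arm windows called by limma, with group means and SD bars beside the points. Mut lies above WT without overlap at each window, by 0.24 to 0.42, but the windows were called on these same values.

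Same-numbered replicates of the genotypes deviated together, as given below, so a fit blocked on replicate number is set beside the count. It called 27 of 150 long-arm windows, 20 higher and 7 lower in Mut, beside 23.5% over all tested windows, 14% higher and 9.47% lower. The 7 lower windows were those of the right side of the mir430 array. Without WT replicate 1, 4 long-arm windows were called. The authors' deposited table called 13 long-arm windows and 19% of all windows, its 13 including the 8 named above. The sign of its fold change is opposite to Mut minus WT in the library columns at all 13.

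The replicates of Mut and WT did not overlap at 26 of the 150 long-arm windows (17.3%), 20 higher and 6 lower in Mut. Over all tested windows, 29.6% did not overlap, 15.5% higher and 14% lower. By this count too the long-arm share was under that of the whole table, and more of its separated windows were higher in Mut than lower. Without microRNAs the long-arm share was 26 of 117 (22.2%). In the distal stretch it was 20 of 69 (29.0%), near the share of the whole table. Again without microRNAs, it was 5 of 16 (31.25%) from 28 to 36 Mb, all higher in Mut. From 36 to 68 Mb it was 1 of 32 (3.125%).

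The ms4a and slco1 families of the distal long arm and the NLR genes had 0 calls by limma, in sets so small that 11.6%, the share over all tested windows, amounts to about 1 window or less in each. The ms4a family of membrane proteins had 10 windows between 74910168 and 75177969, all 10 with differences below 0, from -0.16 to -0.02, and limma adjusted p from 0.196 to 0.948. At an unadjusted p under 0.05, 1 of the 10 was lower, beside 1631 of all 15431 tested windows. The authors' deposited table called 0 of the 10. The slco1 family of organic anion transporters had 5 windows, 4 of them below 0, with 1 lower at an unadjusted p under 0.05 and 0 called by limma or by the authors' deposited table. The 3 tested NLR windows had differences between -0.06 and 0.02, with 0 at an unadjusted p under 0.05. The window of crestin, a marker of the zebrafish neural crest, had 5.98, 5.83 and 6.02 in Mut and 5.90, 5.77 and 6.15 in WT, a difference of 0.00.

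Taken as a whole arm, the genotypes were not separated by the test in the main setting. The median deviation of long-arm windows from their own means was 0.07, -0.01 and 0.03 in Mut and -0.02, -0.03 and 0.01 in WT. The groups overlapped, and Mut was higher by 0.04 with p = 0.2 in a two-sided exact permutation test of 3 against 3, whose smallest p is 0.1. The long-arm deviation minus the short-arm deviation was higher in Mut by 0.07 (exact permutation p = 0.2). With the 12 libraries kept apart, which counts technical repeats as independent, the same permutation test gave p = 0.0303. Some other settings separated the groups, at the smallest exact permutation p of 0.1. For the long-arm difference these were windows of level 6 or more (0.08), quantile normalization (0.07) and library medians set equal (0.07). For the long-minus-short difference they were level 6 or more (0.09), quantile normalization (0.09) and the boundary at 24000000 (0.07). The other settings with 6 replicates gave p of 0.2 to 0.6.

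The median window difference was 0.02 on the long arm, -0.04 on the short arm and -0.02 on the other chromosomes, and 90 of 150 long-arm windows (60%) and 167 of 445 short-arm windows (37.5%) were above 0. Among the arms and the other chromosomes the long arm had the highest median difference and the short arm the lowest. The unplaced contigs, which are outside this ranking, had a higher one of 0.08, with 87 of 138 tested windows (63.0%) above 0. By pair of same-numbered replicates, the long-arm medians were 0.10, 0.01 and -0.01, so that the first pair carried most of the difference, and the short-arm medians were -0.07, -0.02 and -0.02.

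On the short arm, 40 of 445 windows were called (8.99%), 26 higher (5.84%) and 14 lower (3.15%) in Mut. Over all tested windows 11.6% were called, 8.02% higher and 3.58% lower, so the short-arm shares were under these. The median difference was 0.35 among the raised short-arm windows and -0.29 among the lowered ones. The groups did not overlap at any of the 40, but these windows were called on the same values, so the separation adds no support to the calls. Over all tested windows, called or not, 29.6% had groups that did not overlap. Under the replicate block the counts were 44 higher and 61 lower. Together these were 23.6% of the tested short-arm windows, beside 23.5% over all tested windows (14% higher and 9.47% lower). After cyclic loess or quantile normalization the counts were 21 and 19, and with library medians set equal 35 and 9. The calls were 24 without WT replicate 3 and 26 without WT replicate 1.

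The greatest short-arm increase was at btg1 (16554072-16558072), an antiproliferative gene, with 9.89, 10.24 and 10.17 in Mut and 9.18, 9.20 and 9.14 in WT. The WT replicates lay within 0.06 of each other and all Mut replicates were far above them, with a difference of 0.93 ± 0.09, or 1.90-fold (limma adjusted p = 4.64e-06). At mdm2 (23402789-23406789), whose product marks p53 for degradation, the values were 9.41, 9.66 and 9.68 in Mut and 8.82, 8.78 and 8.84 in WT, a difference of 0.77 ± 0.08, or 1.71-fold (adjusted p = 1.35e-05). At fbxl14b (8608718-8612718), an F-box component of ubiquitin ligases, they were 10.54, 10.66 and 10.74 in Mut and 9.93, 9.99 and 9.90 in WT, a difference of 0.71 ± 0.08 (adjusted p = 1.42e-05). No long-arm window changed by as much as any of these 3.

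Further short-arm increases were at pou3f2a, a neural POU transcription factor (0.63), lemd3, an inner nuclear membrane protein (0.62), aebp2, a cofactor of Polycomb repressive complex (0.47), the BED zinc finger gene zbed4 (0.43) and the nuclear receptor nr2c1 (0.41). These are log2 differences, each with limma adjusted p between 6.67e-05 and 0.0132. The nr2c1 call was lost, at 0.0588 to 0.0647, without Mut 3, WT 1 or WT 3.

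The greatest short-arm decrease was at gpr37b (3969334-3973334), a G protein-coupled receptor, with 8.07, 7.80 and 8.02 in Mut and 8.31, 8.53 and 8.43 in WT. All Mut replicates were below all WT replicates, and the difference was -0.46 ± 0.09 (limma adjusted p = 0.00204). Decreases followed at gxylt1b, a xylosyltransferase acting on Notch (-0.40), podxl, a sialomucin of the cell surface (-0.38), asb13a.1, a SOCS-box gene (-0.37), the secreted protein gene scube1 (-0.36), tmtc2a (-0.35), the synaptic scaffold gene grip1 (-0.29) and the kisspeptin gene kiss2 (-0.29). The adjusted p of these 7 ran from 0.00214 to 0.0214. Leaving out 1 replicate ended the calls at grip1 (Mut 2, WT 1 or WT 2, adjusted p 0.0506 to 0.0726) and kiss2 (Mut 2, Mut 3, WT 1 or WT 3, adjusted p 0.0503 to 0.101). The 10 short-arm microRNA windows all had differences below 0, from -0.22 to -0.03. Limma called 0 of them, beside 11.6% of all tested windows. At an unadjusted p under 0.05, 3 of the 10 were lower, beside 1631 of all 15431 tested windows. The authors' deposited table called 1 of the 10, beside 19% of all windows.

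The share of windows called rose with signal, so the arms were also set side by side within bands of signal, leaving out long-arm microRNAs. Between 4 and 6, 0 of 53 long-arm windows, 1.92% of short-arm windows and 0.917% of windows elsewhere were called. Over all 58 long-arm windows of that band, 6 were higher at an unadjusted p under 0.05, beside 2188 of all 15431 tested windows. The authors' deposited table called 2 of the 58, beside 19% of all windows. Between 6 and 8 the shares were 5 of 51 on the long arm (9.80%), 5.91% on the short arm and 8.65% elsewhere. Between 8 and 10 they were 3 of 13 on the long arm (23.1%), 20.2% on the short arm and 19.3% elsewhere. Those 3 were nup50 and the overlapping pair znf989 and si:ch73-266f23.3, all of them lost after cyclic loess or quantile normalization. With the long-arm microRNA windows kept in, the share between 8 and 10 was 3 of 33 (9.09%), and at 10 and over it was 0 of 4, all in the mir430 array, beside 43.4% elsewhere. Between 6 and 8 the long-arm share was near that of the other chromosomes with its microRNA windows kept in (5 of 55, 9.09%) or left out. Between 8 and 10 it was near only when they were left out.

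Of the bands with long-arm calls, directions differed in description between 6 and 8 but not between 8 and 10. Between 8 and 10 the long arm had 3 higher and 0 lower in Mut, the short arm 20 and 3, and the other chromosomes 793 and 142. As given above, those 3 long-arm calls were lost after cyclic loess or quantile normalization. Between 6 and 8 all 5 long-arm calls were higher in Mut, while the short arm had 4 higher and 9 lower, and the other chromosomes 198 higher and 372 lower. With 5 calls the difference was not tested.

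**Figure D4:**
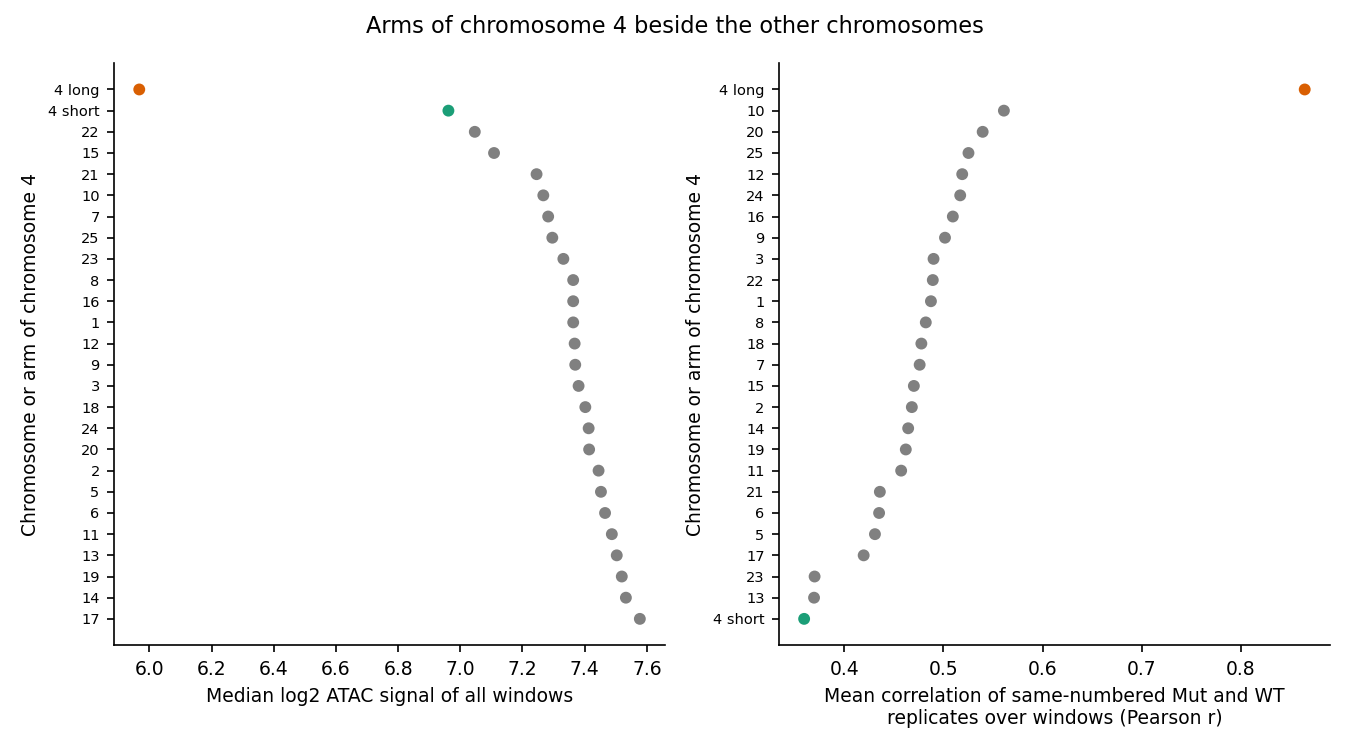
Median signal of all windows (left, log2) and mean correlation between same-numbered Mut and WT replicates over tested windows (right, Pearson r) for the arms of chromosome 4 and the other 24 chromosomes. The long arm has the lowest median, 5.97, and the highest correlation, 0.86.

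Over the tested long-arm windows as a set, replicate number took a larger share of the variation than genotype did. Replicate number has more levels than genotype, which by itself raises its share of a raw sum of squares. Of the sum of squared deviations, replicate number, shared by Mut and WT, took 87.2% on the long arm, genotype took 6.82% and the remainder was 5.93%. On the short arm replicate number took 32.2% and genotype 51.7%, and on the other chromosomes they took 37.4% and 49.1%. The long-arm shares include 33 overlapping mir430 windows, whose median range over replicate numbers was 0.93, beside 0.25 for all tested long-arm windows. Without microRNAs the long-arm shares were 71.4% for replicate number and 18.6% for genotype. In the middle stretch from 36 to 68 Mb they were 82.6% and 6.65%. In the distal stretch they were 56.9% and 32.4%, which does not rank number above genotype once its extra level is allowed for.

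The deviations of same-numbered Mut and WT replicates from their group means were correlated over long-arm windows with r of 0.92, 0.73 and 0.95 (150 windows that share libraries, many of them overlapping). Without microRNAs r was 0.85, 0.66 and 0.79 (117 windows). Over the 445 short-arm windows it was 0.35, 0.30 and 0.43, and over the windows of the other chromosomes 0.44, 0.51 and 0.48. The long arm had the higher r in 3 of 3 pairs, with or without microRNAs, for which the exact permutation p is 0.25, the smallest that 3 pairs allow.

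Single long-arm genes show the size of this variation. At si:dkey-156k2.1 (48442955) the values were 4.92, 5.18 and 6.61 in Mut and 4.95, 5.20 and 5.85 in WT, so that replicate 3 was highest in both. At zgc:173714 (60307419) they were 7.57, 7.13 and 6.35 in Mut and 7.37, 6.87 and 6.73 in WT, so that replicate 3 was lowest in both. The transporter gene slco1f2 (75917167) had 6.06, 6.47 and 6.72 in Mut and 6.10, 6.46 and 6.79 in WT. The finTRIM gene ftr64 (70711162) had 7.82, 7.14 and 7.71 in Mut and 7.84, 7.29 and 7.80 in WT, with replicate 2 lowest in both. These 4 genes were chosen after their values were seen, as examples of a wide range over numbers.

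A range of at least 0.5 between the means of the 3 numbers was found at 44 of 150 long-arm windows (29.3%), at 0 of 445 short-arm windows and at 120 of 14698 windows elsewhere (0.816%). Of the 44, 33 were in the mir430 array and 11 were other genes, among them znf1113, znf1077 and ms4a17a.7. The order of the 3 replicates was the same in Mut and WT at 43.6% of long-arm windows without microRNAs, at 29.0% of short-arm windows and at 30.6% elsewhere.

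Over all tested windows, the median SD between biological replicates within a genotype was 0.143 on the long arm and 0.088 on the short arm, and that between technical repeats was 0.118 and 0.113. With microRNAs left out on the long arm only, its median SD was 0.125 between biological replicates within a genotype and 0.105 between technical repeats. The other chromosomes, with their microRNAs kept in as on the short arm, had 0.092 and 0.111. At the mir430 array the corresponding SDs were 0.535 between biological and 0.22 between technical replicates. What the replicate numbers stand for is not given in the labels, and the source of the shared variation was not tested.

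**Figure D5:**
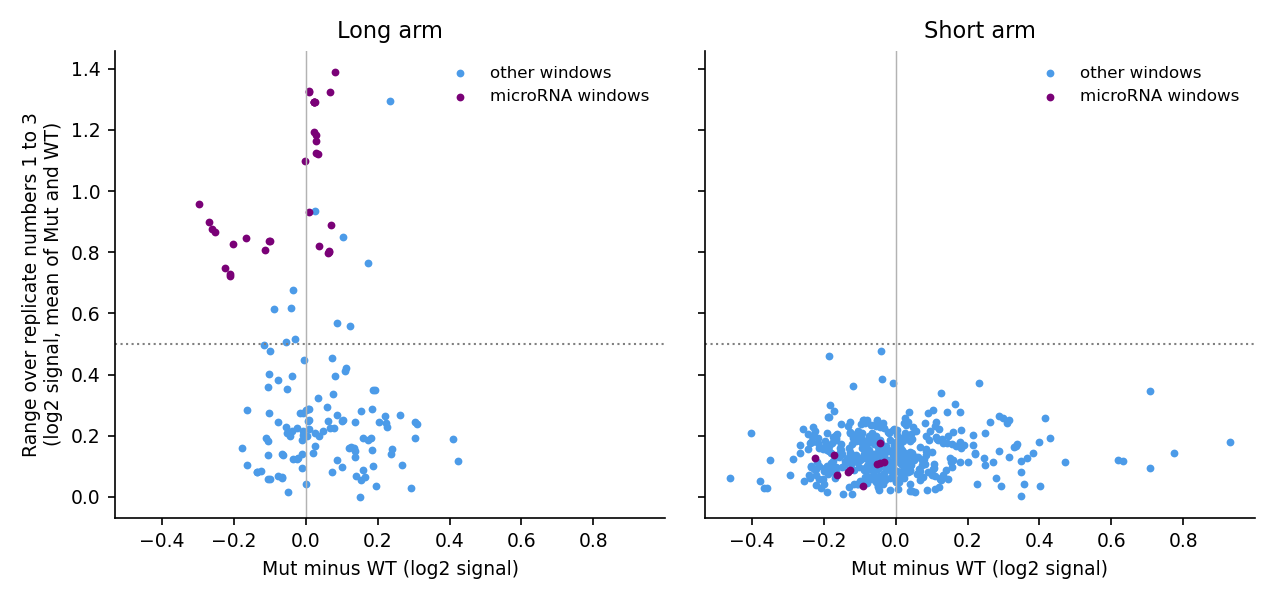
Range over replicate numbers of the mean of Mut and WT (log2, vertical axis, with a dotted line at 0.5) against Mut minus WT (log2, horizontal axis) for each tested window of the long arm and of the short arm, microRNA windows in purple. Above the line are 44 of 150 long-arm windows and 0 of 445 short-arm windows, while differences between genotypes reach 0.42 on the long arm and 0.93 on the short arm.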

How the data were processed

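Per the file headers, the authors deposited a table of 16555 entries with 12 library columns of normalized log2 values, and columns of log2 fold change, p-value and adjusted p-value of their own comparison. Per the submitters' processing notes, the tools included HOMER 4.9, CASAVA 1.8 and FastQC 0.11.2, with the build GRCz10. Not given in the sources used here were the aligner, the read filters, the treatment of reads that match several places, any Tn5 shift and the test behind the deposited p-values. No counts were given, so depth is unknown and no interval that needs it is printed. The sign of the authors' fold change is opposite to Mut minus WT in the library columns.

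Repeated entries for a window were collapsed (on chromosome 4 their values differed by at most 0.0175). Technical pairs, named by the columns, were averaged. Windows with a mean log2 value of at least 4 entered the test (15431), which was limma 3.58.1 (R 4.3.3, trend and robust) on 3 Mut against 3 WT, with Benjamini-Hochberg adjustment over all of them and a threshold of 0.05. The script was tested on simulated data. Arm medians were compared by exact permutation tests over replicates. Named genes were the 8 called windows of greatest increase and of greatest decrease on each arm whose groups did not overlap, the 5 highest and 5 lowest long-arm windows, the microRNAs, and the 2 windows nearest the boundary on each side. Other genes named were chosen after their values were seen. The arms and lists were chosen with earlier results of these data known. Same-numbered Mut and WT replicates deviated together over all tested windows (r = 0.46, 0.51 and 0.53), so the numbers were taken to pair the samples. Alternatives covered technical averaging, the replicate block, filters, normalization, the arm boundary, repeated genes and each replicate left out.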

Additional observations from a re-analysis of the deposited data

How the results depend on the processing

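In all, 1790 windows were called, 40 on the short arm and 8 on the long arm. With the 12 libraries kept apart the counts were 2969 over the whole table, 77 on the short arm and 15 on the long arm. With the replicate block they were 3621, 105 and 27, and when cyclic loess was joined to the replicate block, an alternative chosen after seeing the data, 3204, 77 and 40. The split of higher and lower calls on the long arm was 8 and 0 in the averaged fit, 20 and 7 under the block, 31 and 9 under cyclic loess with the block, and 6 and 1 without Mut replicate 2. With the arm boundary at 24000000 the long arm had 13 calls. Leaving out each replicate in turn gave 1056 to 2223 calls over the whole table, 24 to 54 on the short arm and 4 to 7 on the long arm. In that setting the arm gap in signal ran from -0.64 to -0.61, with an exact p of 0.0625, the smallest that 5 replicates allow. The long-minus-short difference between genotypes was 0.0702 with technical pairs averaged (exact permutation p = 0.2) and 0.0679 with 12 libraries (permutation p = 0.0303). As a replicate block over 3 pairs, the long-arm difference of 0.04 and the long-minus-short difference of 0.07 each had an exact permutation p of 0.25, the smallest that 3 pairs allow. On the short arm the balance of higher and lower calls turned over, with 26 and 14 in the averaged fit against 37 and 40 with 12 libraries, 44 and 61 under the block, and 35 and 42 under cyclic loess with the block. The arm gap in signal and both arm-level differences kept their sign under the alternatives run. The cause of these changes in counts was not tested. Unknown depth and a scale that compresses weak signal limit what could be detected in the middle of the long arm.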
